A study of Mus musculus with 6 samples.

Results

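The genes described here are 10 direct targets and feedback regulators of the Wnt/beta-catenin pathway, chosen by symbol from the 25067 rows of an RNA-sequencing table of mouse colonic organoids: Axin2, Nkd1, Notum, Rnf43, Znrf3, Sp5, Lef1, Tcf7, Lgr4 and Cd44. All 10 symbols were found, each on 1 row. The organoids, three-dimensional epithelial cultures grown from crypts, came from C57BL/6 mice (8 weeks old in the labels) with both alleles of Prkci and Prkcz floxed and with Villin-CreERT2, a Cre recombinase that the Villin promoter drives in intestinal epithelium and that tamoxifen activates. They were given 4-OH-tamoxifen (4-OHT, 3 libraries) or ethanol vehicle (3 libraries) at passage and collected after 3 days. All 6 libraries therefore carried the floxed alleles and the Cre, including the vehicle group, whose description label reads wild type. The medium of both groups contained R-spondin 1, Noggin, EGF and WNT3A, so a Wnt ligand and an R-spondin were supplied to every culture. No library had 4-OHT without the floxed alleles or without the Cre, so loss of the kinases, Cre activity and 4-OHT cannot be told apart.

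In the canonical pathway, a Wnt ligand binds a Frizzled receptor and its LRP co-receptor, the complex that marks beta-catenin for destruction is held back, and beta-catenin enters the nucleus, where it works with TCF/LEF factors on its target genes. Several of those targets then damp the signal: AXIN2 is a scaffold of the destruction complex, NKD1 acts on Dishevelled, NOTUM removes the lipid that Wnt ligands need, and RNF43 and ZNRF3 are membrane ubiquitin ligases that clear Frizzled from the cell surface. R-spondins, bound by LGR receptors, take RNF43 and ZNRF3 out of action. In the colon this pathway sustains the stem cells at the crypt base.

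TCF/LEF factors bind DNA at sites with the core CTTTG, so the 250 bases before each annotated start were searched on both strands for CTTTG and for the longer forms CTTTGA and CTTTGAT, which contain it. The RefSeq promoter table (build GRCm38.p6) held 13 promoters of 8 of the 10 genes, without Notum and Znrf3. CTTTG was found in 6 of the 13 promoters, before at least 1 start of Sp5, Cd44 and Lef1. Of all 32851 promoters in the table, 48.6% held it. CTTTGA was found in 2 of the 13, before Sp5 and Lef1, and 13.8% of all promoters held it. CTTTGAT was found only before Sp5 among the 13, and 3.21% of all promoters held it. The windows printed are the densest and the longest match at Sp5, a transcription factor gene widely used as a Wnt target, and the match at Cd44, the gene that rose most. Capitals mark the matches, in either orientation, and each window is read 5′ to 3′ along the gene's strand.
Sp5, chr2:70474699-70474728, plus strand, 224 to 195 bases before the start: ataaCAAAGacaCTTTGtcaCTTTGAgcac
Sp5, chr2:70474808-70474837, plus strand, 115 to 86 bases before the start: ggcaaggccccCTTTGATcaggaaaatcca
Cd44, chr2:102901811-102901840, minus strand, 175 to 146 bases before the start: caagtttagtggCAAAGgagaaactggaag
A match is a run of letters and does not show that a factor was bound.

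Before the results, some facts of the libraries are needed. They held between 15804709 and 26957612 reads each. The values are normalized counts, that is, reads per gene divided by a size factor per library. Both floxed genes fell: Prkcz had 879.8, 904 and 954 normalized counts with vehicle and 287, 265 and 290.3 with 4-OHT (30.8% of the vehicle mean, limma adjusted p = 3.2e-12), and Prkci had 3603, 3526 and 3430 with vehicle and 2869, 3105 and 3089 with 4-OHT (85.8%, limma adjusted p = 8.1e-04). A row counts the whole gene, so the recombined exons themselves were not seen. The epithelial marker Epcam averaged 27295 ± 1144 (SD, n = 3) normalized counts with vehicle and 32881 ± 2147 (SD, n = 3) with 4-OHT, and the colon marker Cdx2 averaged 6643 ± 59.0 (SD, n = 3) and 5546 ± 238 (SD, n = 3), so markers of the labeled tissue were present. Among the colon markers, Car1 rose (0.92 on the log2 scale) and Cdx2 fell (-0.26). 4-OHT replicate 1 stood apart from 4-OHT replicates 2 and 3 on the second principal component (-26.8 against 10.5 and 10.9). Markers of small intestine and Paneth cells summed to 222 to 355 normalized counts in the vehicle libraries, 272 in 4-OHT replicate 1, and 779 and 725 in 4-OHT replicates 2 and 3. The largest part of the vehicle sums was Lyz1, at 145 to 263, against 182 to 290 with 4-OHT. Defa24 had 0.93 to 4.26 with vehicle, 4.13 in 4-OHT replicate 1, and 150 and 200 in 4-OHT replicates 2 and 3. Of these 10 markers, 5 were called higher by the test described below (22.7% of all rows were) and 0 lower. The 8 fibroblast markers summed to 213 normalized counts in 4-OHT replicate 3 and to 38.7 to 68.1 in the other 5 libraries. Of these markers, Col1a2, Col3a1, Dcn and Lum had 0 reads in every vehicle library and in 4-OHT replicate 1. Col1a1 and Pdgfra had reads in both groups. Pdgfrb went the other way, with 47.6, 44.0 and 31.5 normalized counts with vehicle and 31.0, 27.0 and 17.1 with 4-OHT. The counts and members that follow were therefore also computed without 4-OHT replicates 2 and 3. That fit holds a single 4-OHT library, so its calls and counts assume that 4-OHT libraries vary like the vehicle group.

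The Wnt target and feedback genes did not move together after 4-OHT. Cd44 rose, Axin2, Znrf3 and Lgr4 fell, and Rnf43, Sp5, Tcf7 and Nkd1 did not pass the test. Lef1 and Notum were too low to be tested. The test was limma-trend on log2(normalized count + 1). It covered the 13210 rows whose mean reached 10 normalized counts, and a gene is called changed at a Benjamini-Hochberg adjusted p-value under 0.05 over all these rows. Of the 8 genes tested, 4 were called, where 43.6% of all rows tested were, so the number of calls was near the background. By direction, 1 rose (22.7% of all rows did) and 3 fell (21.0% of all rows did). The higher share of all calls, 52.0%, became 36.9% when libraries were scaled to their total reads. The groups did not overlap for the same 4 genes, 1 higher and 3 lower, where 26.8% of all rows tested were higher without overlap, 25.3% lower and 52.1% either. The median log2 fold change of the 8 was -0.09 and that of all rows -0.0054. The same 4 genes and directions were called in all 17 other analyses run, of which that without 4-OHT replicates 2 and 3 held a single 4-OHT library. Without 4-OHT replicates 2 and 3 the log2 fold changes were -0.23 for Axin2, -0.46 for Znrf3, -0.32 for Lgr4 and 0.58 for Cd44. The sizes were moderate, since 10% of all rows had a log2 fold change above 0.69 in either direction and none of the 8 had.

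**Figure D1:**
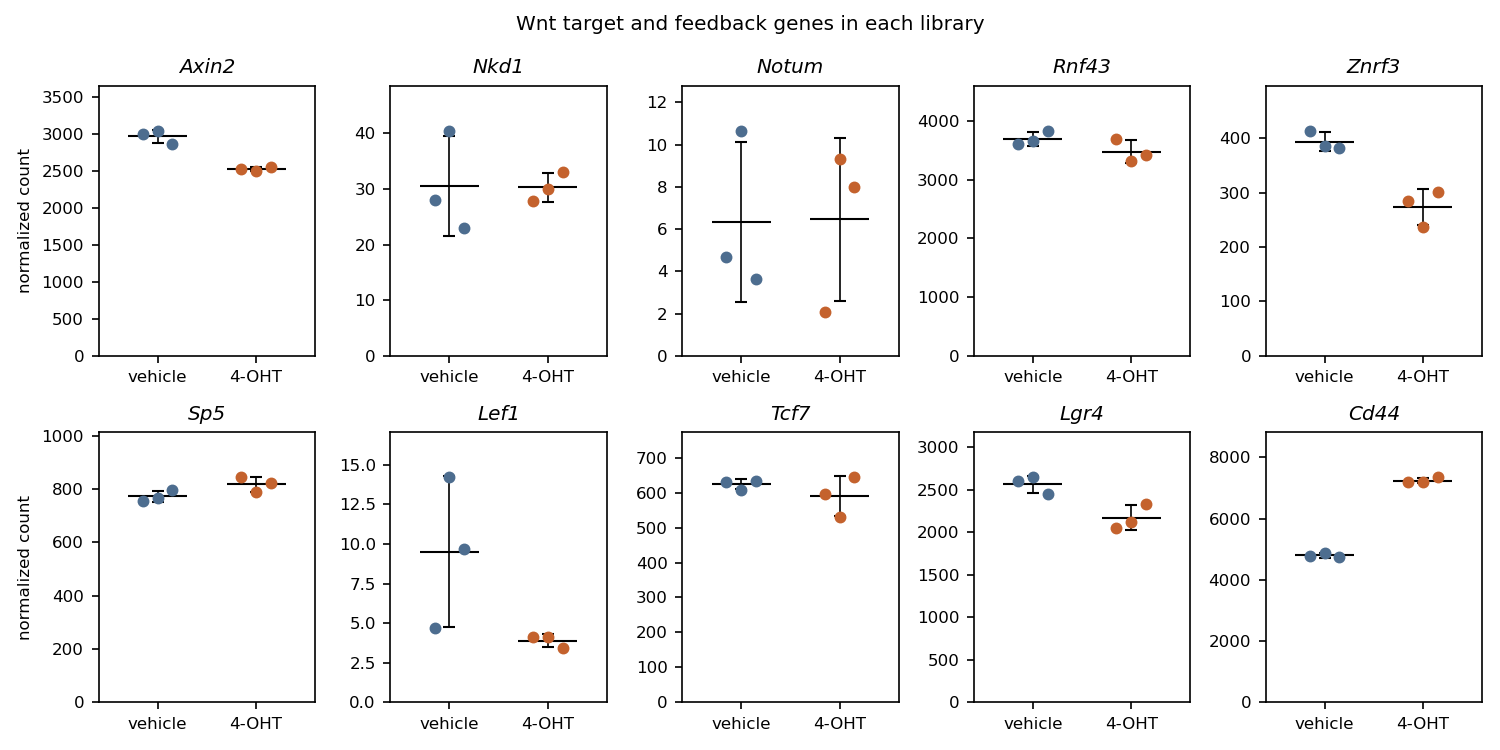
Normalized count (vertical axis, from 0) of each of the 10 Wnt target and feedback genes in the 3 vehicle (blue) and 3 4-OHT (orange) libraries. Points are libraries, the horizontal line is the group mean and the bar is 1 SD. The groups lie apart for Axin2, Znrf3, Lgr4 and Cd44, while for Lef1 they lie apart by less than 1 normalized count.

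Among the negative feedback genes, Axin2, the gene most often read as a reporter of the pathway, had 2995, 3038 and 2862 normalized counts in vehicle replicates 1, 2 and 3 and 2519.8, 2496 and 2554 in 4-OHT replicates 1, 2 and 3. Every 4-OHT library was below every vehicle library, and the 4-OHT libraries were close to each other. The mean went from 2965 ± 91.9 (SD, n = 3) to 2523 ± 29.4 (SD, n = 3), 85.1% of the vehicle level, a log2 fold change of -0.23 (SE 0.05 and limma adjusted p = 4.1e-04). The gene lies on chromosome 11 from 108920349 to 108950783 (plus strand, GENCODE annotation of GRCm38).

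Znrf3 (chromosome 11, 5276324 to 5444847, minus strand) showed the largest fall of the 8. Its normalized counts were 413, 386 and 383 in the vehicle libraries and 285, 236 and 301 in the 4-OHT libraries. All 4-OHT values were lower, and 4-OHT replicate 2 was the lowest. The mean fell to 69.6% of the vehicle level, from 394 ± 16.9 (SD, n = 3) to 274 ± 33.5 (SD, n = 3), with a log2 fold change of -0.53 (SE 0.10 and limma adjusted p = 2.2e-04).

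Rnf43, which encodes the other membrane ubiquitin ligase that removes Frizzled, had 3598, 3662 and 3827 normalized counts with vehicle and 3689, 3318 and 3414 with 4-OHT. The groups overlapped, because 4-OHT replicate 1 was within the vehicle range. The log2 fold change was -0.09 (95% interval -0.19 to 0.01, limma adjusted p = 0.15). Without 4-OHT replicates 2 and 3 it was -0.0019, and without 4-OHT replicate 2 alone -0.058. Rnf43 was called lower in 3 of the 17 other analyses: -0.13 without 4-OHT replicate 1 (limma adjusted p = 0.036), -0.15 with quantile normalization and -0.16 when libraries were scaled to their total reads.

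The paired ligases could also be compared within each library, where the size factor cancels. The log2 ratio of Rnf43 to Znrf3 was 3.12, 3.24 and 3.32 in the vehicle libraries and 3.69, 3.81 and 3.50 in the 4-OHT libraries. All 4-OHT ratios were higher, by a mean of 0.44. The exact two-sided permutation test gave p = 0.10, which is the smallest that 3 against 3 libraries allow, so this design could not bring the difference under 0.05.

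Nkd1 and Notum were low. Nkd1 had 28.0, 40.4 and 23.0 normalized counts with vehicle and 27.9, 30.1 and 33.0 with 4-OHT. All 4-OHT values lay inside the vehicle range, the log2 fold change was 0.03, and its 95% interval from -0.55 to 0.61 leaves room for a change as large as that of Znrf3 or Cd44. Notum, which encodes the secreted enzyme that inactivates Wnt ligands, had only 5, 15 and 3 reads with vehicle and 2, 9 and 7 with 4-OHT. It was under the minimum for testing, its normalized counts of 3.63 to 10.6 and 2.07 to 9.33 overlapped, and 38.1% of its annotated exon bases are shared with other annotated genes on the genome.

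Of the transcription factors, Sp5, which acts on other Wnt targets, had 756, 767 and 797 normalized counts with vehicle and 843, 788 and 822 with 4-OHT. The lowest 4-OHT value was within the vehicle range. The log2 fold change of Sp5 was 0.08 (95% interval -0.05 to 0.21, limma adjusted p = 0.32). Thus the gene with the CTTTGAT match and the cluster of CTTTG matches shown above did not pass the test in either direction.

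Tcf7, which encodes TCF1, had 632, 609 and 632 normalized counts with vehicle and 596, 529.7 and 643 with 4-OHT. The groups overlapped and the 4-OHT libraries spread more widely. Its log2 fold change was -0.09 (95% interval -0.25 to 0.07, limma adjusted p = 0.39).

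Lef1 was close to absent from these organoids, with 5, 20 and 8 reads with vehicle and 4, 4 and 3 with 4-OHT. Its normalized counts of 4.66, 14.2 and 9.68 with vehicle were all above the 4.13, 4.15 and 3.42 with 4-OHT, but the gap between the groups came to less than 1 normalized count. With no filter on low values its adjusted p was 0.25 in limma and 0.16 in edgeR. The log2 ratio of Lef1 to Tcf7 was -6.01 ± 0.75 (SD, n = 3) with vehicle and -6.91 ± 0.25 (SD, n = 3) with 4-OHT, and the groups overlapped (exact permutation p = 0.20). The difference of -0.91 became -0.57 without vehicle replicate 2 and -1.31 without vehicle replicate 1. Lef1 and Tcf7 are also T cell genes. Of the 8 T cell markers with a row, Cd2, Cd3e, Cd3g, Cd4, Cd8a and Cd8b1 had 0 to 2 reads in each library and Ptprc at most 4. Lck alone was measurable, at 73.8 to 95.6 normalized counts with vehicle and 36.4 to 48.7 with 4-OHT.

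The membrane proteins moved in opposite directions. Lgr4, the R-spondin receptor of wide expression along the crypt, had 2600.2, 2645 and 2453 normalized counts with vehicle and 2056, 2125 and 2337 with 4-OHT. All 4-OHT values were lower, with 4-OHT replicate 3 nearest to the vehicle group. The mean fell to 84.7% of the vehicle level, with a log2 fold change of -0.24 (SE 0.05 and limma adjusted p = 0.0012). Its gene spans 109917647 to 110014257 of chromosome 2 (plus strand).

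Cd44, a receptor for hyaluronan and a marker of crypt and tumor epithelium, had 4771, 4885 and 4731 normalized counts with vehicle and 7184, 7191 and 7340.0 with 4-OHT. The groups were far apart compared with the spread inside them. The mean went from 4796 ± 79.7 (SD, n = 3) to 7238 ± 88.1 (SD, n = 3), 151% of the vehicle level, and the log2 fold change was 0.59 (SE 0.04 and limma adjusted p = 1.1e-09). Its gene spans 102811141 to 102901665 of chromosome 2 (minus strand), and the deposited table gives it 1 value, so its splice variants were not analysed here.

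**Figure D2:**
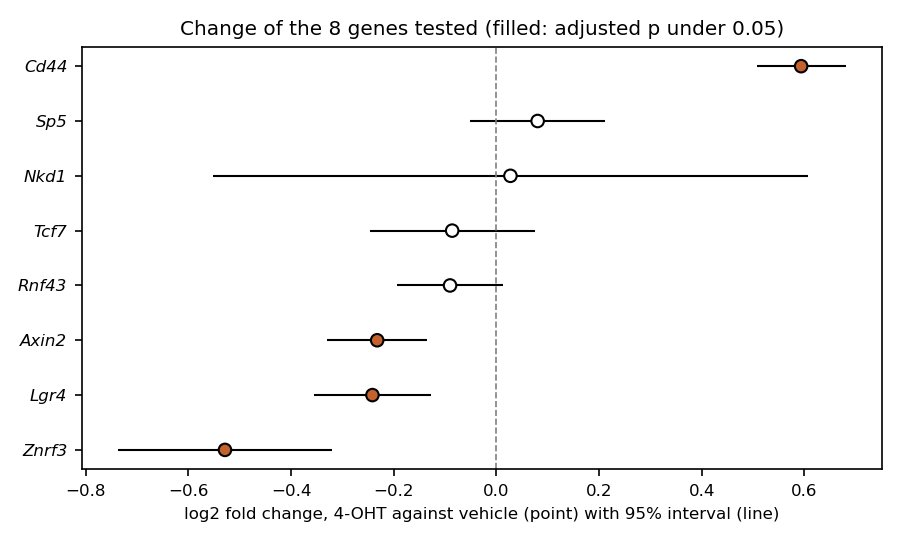
Log2 fold change of 4-OHT against vehicle (horizontal axis) for the 8 Wnt target and feedback genes tested, with the 95% interval of the limma fit as a line. Filled points passed an adjusted p of 0.05: Cd44 at 0.59, Axin2 at -0.23, Lgr4 at -0.24 and Znrf3 at -0.53. The widest interval is that of Nkd1, the lowest of the 8.

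Levels can be compared between genes once counts are divided by the length of the annotated exons. On the scale of normalized counts per kilobase of exon, the vehicle order was Cd44 (708 ± 11.8), Rnf43 (563 ± 18), Axin2 (538 ± 16.7), Lgr4 (436 ± 17.1), Sp5 (368 ± 10.1), Tcf7 (238 ± 5.09), Znrf3 (49.9 ± 2.14), Nkd1 (6.69 ± 1.97), Notum (2.62 ± 1.57) and Lef1 (1.08 ± 0.54), as means ± SD of 3 libraries. Rnf43 and Axin2 overlapped in that order, as did Notum and Lef1. The other neighbors did not overlap. With 4-OHT the means kept this order except that Sp5 (389 ± 13.3) came before Lgr4 (369 ± 24.9), and these overlapped between libraries. Cd44 reached 1068 ± 13.0 normalized counts per kilobase. Of the ligases, Znrf3 was the lower on this scale in both groups, at 34.7 ± 4.25 with 4-OHT against 529.7 ± 29.4 for Rnf43. Exon lengths are those of GENCODE on GRCm38, and 13.8% of the exon bases of Lef1 are shared with another annotated gene.

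**Figure D3:**
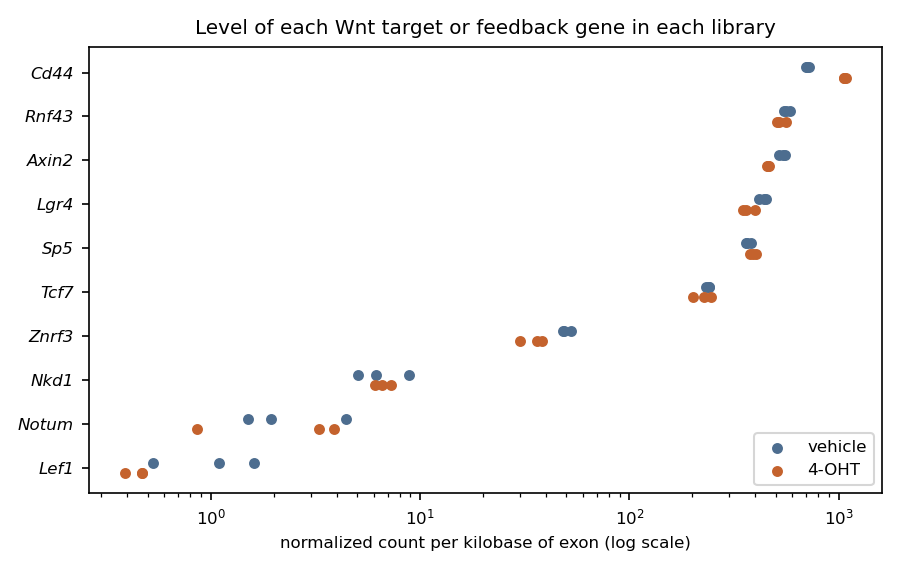
Normalized count per kilobase of annotated exon (horizontal axis, log scale) of the 10 Wnt target and feedback genes in each vehicle (blue) and 4-OHT (orange) library. Cd44, Rnf43, Axin2, Lgr4, Sp5 and Tcf7 lie above 200 in every library, and Notum and Lef1 lie below 5.

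Because bulk values mix all cells, fewer cells of a type and less RNA per cell cannot be told apart. Of the 7 epithelial markers, 6 were called higher (22.7% of all rows were) and Krt20 was not (0.24, limma adjusted p = 0.079). The median log2 fold change of the 7 was 0.32. Their sum was 380293 to 391552 normalized counts with vehicle and 516513 to 560486 with 4-OHT. Most of that sum is Krt8 and Krt19. Relative to it, the log2 ratio of Axin2 was -6.99, -6.99 and -7.10 with vehicle and -7.68, -7.81 and -7.69 with 4-OHT, lower by a mean of 0.70 (exact two-sided permutation p = 0.10, the smallest possible here). All 10 proliferation markers were called lower (21.0% of all rows were), with a median log2 fold change of -0.69. Their sum was 38604 to 41244 normalized counts with vehicle and 21894 to 24360.0 with 4-OHT. These markers thus fell further than Axin2 (-0.23), so whether Axin2 is lower or higher relative to other genes depends on the markers it is set against. The part of proliferation and of epithelial content in the changes of the Wnt genes was not tested.

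The other genes of the pathway, grouped by role, changed in both directions. Of the 25 genes for Wnt ligands, R-spondins and ligand export, 20 had a row and 6 could be tested. Of these, 4 rose and 1 fell (43.6% of all rows were called), with a median log2 fold change of 0.79. With libraries scaled to total reads, 4 rose and 2 fell. Wnt7a rose from 83.0, 75.9 and 76.3 normalized counts to 201, 210.4 and 214, a log2 fold change of 1.40 (SE 0.13 and limma adjusted p = 5.8e-08). Wnt7b had 85.8, 80.2 and 87.2 with vehicle and 209, 208 and 213 with 4-OHT, a log2 fold change of 1.31 (SE 0.13 and limma adjusted p = 1.0e-07). For both, the vehicle and the 4-OHT libraries lay in narrow and separate ranges.

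Wnt9a rose from 31.7, 44.7 and 33.9 normalized counts to 80.6, 118 and 93.3 (log2 fold change 1.38, SE 0.21, limma adjusted p = 2.3e-05). Wls, which encodes the carrier that brings Wnt ligands to the cell surface, averaged 2570.1 ± 24.4 (SD, n = 3) normalized counts with vehicle and 3094 ± 82.1 (SD, n = 3) with 4-OHT, a rise of 0.27 on the log2 scale (limma adjusted p = 8.4e-05). Wnt3, the ligand that Paneth cells supply in the small intestine, went the other way, from 28.9, 44.0 and 37.5 normalized counts to 19.6, 19.7 and 22.8 (log2 fold change -0.78, SE 0.28, limma adjusted p = 0.028). The call for Wnt3 was lost in 7 of 16 other analyses, among them those without vehicle replicate 2 (-0.65), vehicle replicate 3 (-0.76), 4-OHT replicate 1 (-0.75) or 4-OHT replicate 2 (-0.75). Its direction held in all 16.

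Wnt2b, Wnt5b, Wnt6 and Wnt10a had reads in every library but only 1 to 19 of them, and were not tested. Wnt3a, the ligand added to the medium as protein, had 2 reads in vehicle replicate 1 and 0 in the other libraries. Rspo3 had 1 read in 4-OHT replicate 3 and Rspo4 none in any library, which allows up to 3 reads per library by counting error alone.

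**Figure D4:**
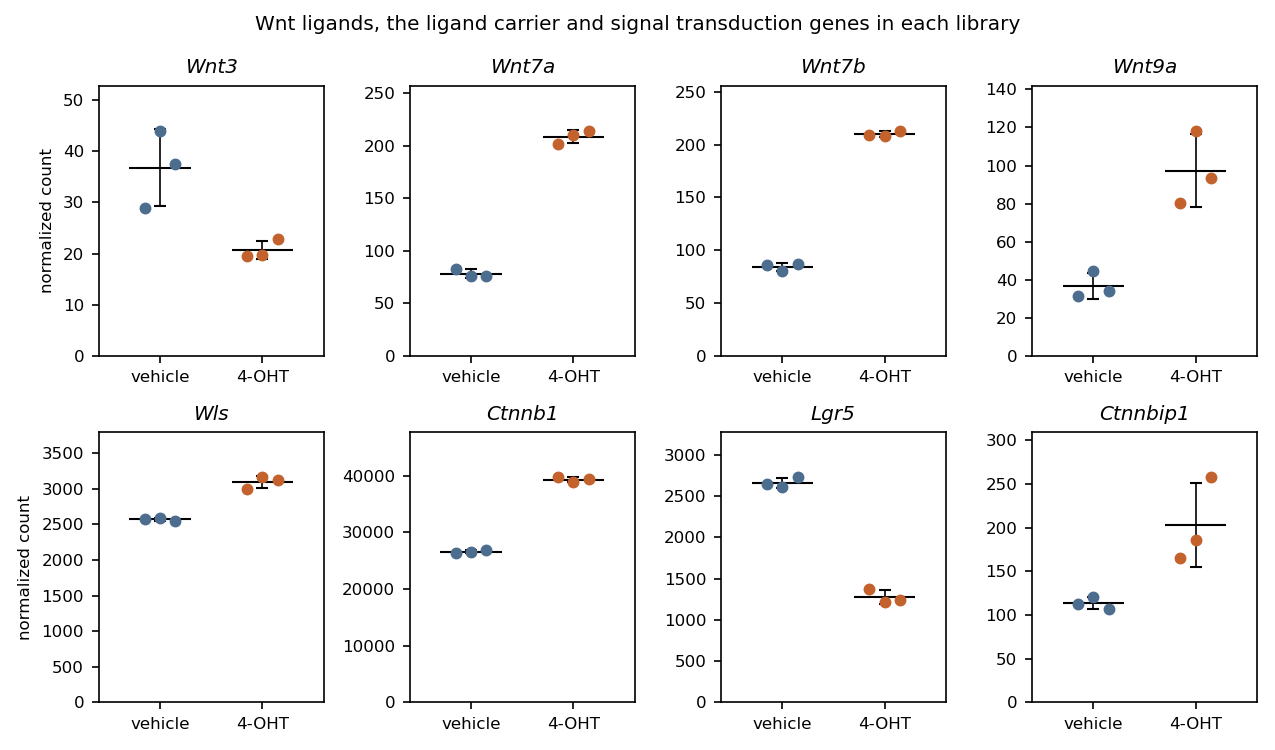
Normalized count (vertical axis, from 0) of 8 other Wnt pathway genes in the 3 vehicle (blue) and 3 4-OHT (orange) libraries, with the group mean (line) and 1 SD (bar). Wnt7a, Wnt7b and Wnt9a are higher in every 4-OHT library, as are Wls, Ctnnb1 and Ctnnbip1, and Wnt3 and Lgr5 are lower in every 4-OHT library.

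Of the 17 receptor and co-receptor genes, 16 were tested, and 2 rose and 5 fell, close to the 43.6% of all rows that were called. The median log2 fold change was -0.12. Without 4-OHT replicates 2 and 3, 0 were higher and 6 lower. That fit also called a smaller share of all rows than 43.6%. Lgr5, the R-spondin receptor and stem cell marker, fell from 2645, 2608 and 2725 normalized counts to 1369.9, 1219 and 1245 (log2 fold change -1.06, SE 0.05, limma adjusted p = 1.8e-11). The 95% intervals of the log2 fold changes of Lgr5 (-1.17 to -0.94) and Lgr4 (-0.36 to -0.13) do not overlap. Lgr6, the remaining R-spondin receptor, was low and went from 23.3, 22.7 and 12.1 to 42.4, 36.3 and 29.6 (log2 fold change 0.90, limma adjusted p = 0.024). The call for Lgr6 was lost in 6 of 16 other analyses, among them those without vehicle replicate 3 (0.61), 4-OHT replicate 1 (0.78) or 4-OHT replicate 2 (0.89).

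Among the Frizzled receptors, Fzd4 fell to 57.2% of its vehicle level (log2 fold change -0.81, limma adjusted p = 0.0013) and Fzd7, a receptor of intestinal stem cells, to 63.9% (-0.64, limma adjusted p = 0.0011). Fzd1, the most abundant Frizzled gene by normalized count, rose from 1309.9, 1340.0 and 1197 to 1453, 1628 and 1622 (0.29, limma adjusted p = 6.8e-04), and without 4-OHT replicates 2 and 3 it was at 0.18, short of the threshold. The co-receptors Lrp5 and Lrp6 did not pass the test (-0.10 for each). Of the 11 genes listed as secreted inhibitors, 8 had a row and 1, Apcdd1, could be tested (0.06, limma adjusted p = 0.90). Apcdd1 encodes an inhibitor bound to the membrane, and the 7 other rows were too low, so no secreted inhibitor was tested. Apcdd1 was also not called at an unadjusted p under 0.05 or in edgeR and DESeq2.

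Of the 16 genes for Dishevelled and the destruction complex, 15 were tested, and 4 rose and 4 fell (22.7% and 21.0% of all rows did), with a median log2 fold change of 0.08. Without 4-OHT replicates 2 and 3, 3 were higher and 2 lower. That fit also called a smaller share of all rows. Ctnnb1, which encodes beta-catenin itself, rose from 26322, 26602 and 26896 normalized counts to 39676, 38914 and 39367, 148% of the vehicle level (log2 fold change 0.56, SE 0.04, limma adjusted p = 1.9e-09). The groups lay far apart. Of its exon bases, 15.1% are shared with other annotated genes. Beta-catenin is also a part of adherens junctions, and it is regulated mainly as a protein, which was not measured. Apc, the tumor suppressor of the complex, averaged 2805 ± 37.4 (SD, n = 3) normalized counts with vehicle and 2350.3 ± 199 (SD, n = 3) with 4-OHT (log2 fold change -0.26, limma adjusted p = 8.7e-04). Of the 17 other analyses, the call was lost only without 4-OHT replicates 2 and 3 (-0.17). Of the Dishevelled genes, Dvl1 was higher (0.33), Dvl2 was lower (-0.33) and Dvl3 did not pass the test (0.08). For Dvl2, 19.7% of the exon bases are shared with other annotated genes. Amer1, a membrane partner of APC, was lower (-0.27, limma adjusted p = 0.031), but short of the threshold in 6 of 17 other analyses, among them those without vehicle replicate 1 (-0.26), vehicle replicate 3 (-0.23) or 4-OHT replicate 2 (-0.19).

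Of 17 rows for nuclear effectors, 14 were tested, with 4 higher and 4 lower (22.7% and 21.0% over all rows) and a median log2 fold change of -0.04. Without 4-OHT replicates 2 and 3, 3 were higher and 2 lower. That fit also called a smaller share of all rows. Tcf7l2, the main TCF factor of the intestine, had 710.0, 809 and 699 normalized counts with vehicle and 666, 732 and 764 with 4-OHT (log2 fold change -0.04, 95% interval -0.19 to 0.12). Ctnnbip1, an inhibitor that binds beta-catenin and keeps it from TCF factors, rose to 179% of its vehicle level (0.81, limma adjusted p = 2.0e-04), with 25.8% of its annotated exon bases shared with another gene. Bcl9, a co-activator of beta-catenin, fell (-0.39), as did the acetyltransferase gene Ep300 (-0.38), and Ldb1, a scaffold of transcription complexes, rose (0.36).

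A further 18 intestinal Wnt target genes were listed, Lgr5 and Apcdd1 again among them, of which 16 could be tested, with 4 higher and 5 lower (22.7% and 21.0% over all rows) and a median log2 fold change of 0.07. With quantile normalization, 3 were higher and 6 lower, and without 4-OHT replicates 2 and 3, 4 were higher and 3 lower. The latter fit also called a smaller share of all rows. Besides Lgr5, the called genes with the largest changes were Cdca7 (-0.66), the stem cell transcription factor gene Ascl2 (-0.55) and Bambi, a decoy receptor for BMP and TGF-beta ligands (0.53). Ccnd1, which encodes cyclin D1, rose by 0.22 (limma adjusted p = 0.0026) but was not past the threshold with quantile normalization (0.13), and 23.4% of its exon bases are shared with another annotated gene. Myc was 4227, 4122 and 4272 normalized counts with vehicle and 4522, 4542 and 4290.4 with 4-OHT. Its groups did not overlap, but its log2 fold change of 0.08 (95% interval -0.01 to 0.17, limma adjusted p = 0.15) did not pass the test.

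**Figure D5:**
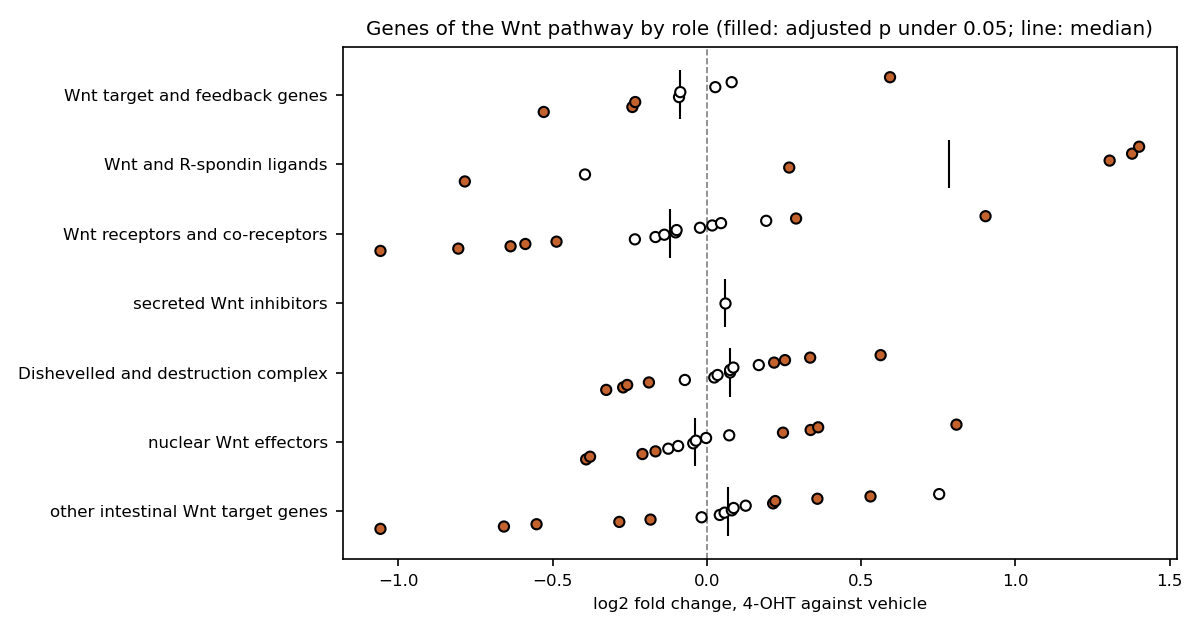
Log2 fold change of 4-OHT against vehicle (horizontal axis) for every tested gene of the Wnt pathway lists, by role, with the median of each list as a line. Filled points passed an adjusted p of 0.05; values run from -1.06 for Lgr5 to 1.40 for Wnt7a, and each list with more than 1 tested gene holds genes on both sides of 0.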

How the data were processed

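RNA of 6 colonic organoid libraries (3 vehicle, 3 4-OHT) was sequenced. The authors deposited normalized counts, a signal made by dividing the reads of each gene by a size factor per library, not scaled to gene length. The submitters' processing notes name STAR, DESeq2 and the build GRCm39 (mm39), without versions; the counting tool, its use of strand and the annotation are not given in the sources used here. In each library 100% of values were whole multiples of a step (within 0.1 reads), and the whole reads recovered this way served the count tests.

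Groups were compared with limma-trend (limma 3.58.1, R 4.3.3), on log2 of the value plus 1, without pairing. Alternatives were pseudocounts of 0.1 and 10, no filter, a minimum mean of 50, TMM factors, quantile normalization, a replicate block, edgeR 4.0.16, DESeq2 1.42.0, libraries left out and, added after seeing the data, scaling to total reads. On simulated data with 200 of 13210 genes changed in this comparison, limma recovered 82 of 100 genes changed by 1 and 67 of 100 changed by 0.5 on the log2 scale, with 13 false calls. In the data themselves 43.6% of rows were called, a far larger share, so these rates do not carry over.

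The members and lists were chosen with earlier results of these data known. Named are all 10 genes, up to 4 called genes per list with the largest change and separate groups, ligands with reads in every library, the 5 rows most like Axin2, and Ctnnb1, Apc, Tcf7l2, Lgr5, Myc, Ccnd1, Prkci and Prkcz. Fzd1, Lrp5, Lrp6, Dvl3, Wnt3a, Rspo3, Rspo4, Apcdd1 and the markers named were picked after their values were seen. Lengths and positions come from GENCODE vM21 (GRCm38), which is not the authors' build. Replicates differed by 3.55 to 6.41 times the counting variance (chi-square per degree of freedom), so none is a copy. Nothing says that they came from separate cultures or animals, so p-values measure the spread between these libraries, which may be technical. Symbols on 2 rows, such as Tle3, were kept apart.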

Additional observations from a re-analysis of the deposited data

How the results depend on the processing

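Axin2 (-0.31 to -0.21), Znrf3 (-0.60 to -0.43), Lgr4 (-0.32 to -0.20) and Cd44 (0.51 to 0.61) kept their direction and stayed past the threshold in all 17 alternatives. Sp5 (0.0075 to 0.13) and Tcf7 (-0.16 to -0.011) stayed short of it in all 17. Nkd1 turned negative in 7 of 16 alternatives: -0.050 with edgeR, -0.037 with DESeq2, -0.043 with scaling to total reads, -0.086 without 4-OHT replicates 2 and 3, -0.013 without vehicle replicate 1, -0.15 without vehicle replicate 3 and -0.034 without 4-OHT replicate 3; leaving out single libraries gave -0.15 to 0.24. The cause was not tested, and Nkd1 was past the threshold in none. The fit without 4-OHT replicates 2 and 3 called a smaller share of all rows. Without 4-OHT replicates 2 and 3, with 4-OHT replicate 1 assumed to vary like the vehicle group, 5 genes rather than 8 were called for Dishevelled and the destruction complex and 5 rather than 8 among nuclear effectors, with fewer libraries in the fit. The rows called over the whole table numbered 5765, and between 3848 and 6007 in the alternatives. Scaling to total reads moved the median of all rows from -0.0054 to -0.078, and 36.9% of its 6007 calls were higher against 52.0% before; among nuclear effectors it gave 4 higher and 6 lower. The log2 ratio of Lef1 to Tcf7 differed by -0.91, by -0.38 with a pseudocount of 10, and by -1.31 (without vehicle replicate 1) to -0.57 (without vehicle replicate 2) with a library left out. The replicate block called 5637 rows and the same number of Wnt target and feedback genes, 4. Deviations of same-numbered libraries correlated at -0.0075, 0.030 and -0.020, so the numbers show no pairing. Lef1 and Notum had at most 20 reads in any library and Nkd1 at most 57.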

Other observations

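The 5 genes whose levels over the 6 libraries were most like those of Axin2, by the smallest root mean square difference of centered log2 values among 10156 other rows averaging 100 normalized counts or more, were Hnrnpdl (0.013), Mob3b (0.015), Luc7l (0.015), Sp1 (0.017) and Arglu1 (0.019). Hnrnpdl, Luc7l and Arglu1 encode proteins of RNA processing and Sp1 a widely expressed transcription factor. Because they were chosen for likeness over the same libraries, their log2 fold changes (-0.26 for Mob3b to -0.22 for Hnrnpdl) had to be near that of Axin2 (-0.23). Nkd1, Notum and Lef1 were below the minimum mean and could not enter.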
